A study of Mus musculus with 27 samples.

Results

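The comparison described here is between wild-type mouse spleen B cells cultured for 24 h with anti-CD40 plus IL-21 and the same kind of cells cultured for 24 h with anti-CD40 alone. It holds 6 of the 27 libraries of the series, 3 with IL-21 and 3 without, chosen by their labels and not by any measured value. Anti-CD40 (clone HM40-3) was given at 1 µg/mL in both groups, and IL-21 at 50 ng/mL in the first. The other libraries come from cells given the same agents for 6 h, from cells that also received IL-4 at 12.5 ng/mL, with or without IL-21, for 6 h or 24 h, and from naive cells, again 3 in each of 9 groups. All cells were primary cells of wild-type animals, and polyadenylated RNA was sequenced. The labels do not say whether replicates came from separate mice or cultures, so p-values measure the spread between these libraries, which may be technical. The question of the comparison is how IL-21 changes the transcripts of a B cell that is already stimulated through CD40.

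IL-21 is a cytokine made mainly by follicular helper T cells. It binds a receptor built from IL-21R and the common cytokine receptor gamma chain, which signals through the kinases JAK1 and JAK3 and mainly through the transcription factor STAT3, with STAT5 as a further target. CD40 signals through TRAF adaptors and NF-kB, and an antibody to it stands in for contact with a T cell. In B cells IL-21 is known for supporting division, germinal centre responses, antibody class switching and plasma cell formation, and for causing cell death where other signals are missing.

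Promoter windows of 8 genes are printed first, for genes that moved together or apart under IL-21 while holding the same motif. Each window runs 5′ to 3′ on the gene's strand from 250 bases before the RefSeq start site to 50 bases after it, on GRCm38.p6. Capitals mark matches of the motif or motifs named for that window, and matches of the other motifs searched are left in lower case. The motifs searched, on both strands, were the STAT element TTCNNNGAA, the AP-1 element TGANTCA, the CCAAT box with the letters CCAAT, the cell cycle element TTTGAA, the E2F elements TTGGCGC and also TTCCCGC, and the E box with the letters CACGTG. Overlaps between matches are given with the window. The first 4 hold TTCNNNGAA, the palindrome that STAT factors are known to bind. Socs3 (chr11:117969317-117969616, minus strand) and Plscr1 (chr9:92249944-92250243, plus strand) are among the 15 largest rises of the comparison, Gbp5 (chr3:142496684-142496983, plus strand) fell, and Irf1 (chr11:53769764-53770063, plus strand) did not pass the test.
Socs3: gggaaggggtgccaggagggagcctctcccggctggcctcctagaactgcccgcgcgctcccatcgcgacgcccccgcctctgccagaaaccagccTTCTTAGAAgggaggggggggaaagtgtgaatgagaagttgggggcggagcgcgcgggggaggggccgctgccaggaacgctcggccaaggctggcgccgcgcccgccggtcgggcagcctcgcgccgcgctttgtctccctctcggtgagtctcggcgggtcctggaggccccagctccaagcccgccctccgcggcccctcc
Plscr1: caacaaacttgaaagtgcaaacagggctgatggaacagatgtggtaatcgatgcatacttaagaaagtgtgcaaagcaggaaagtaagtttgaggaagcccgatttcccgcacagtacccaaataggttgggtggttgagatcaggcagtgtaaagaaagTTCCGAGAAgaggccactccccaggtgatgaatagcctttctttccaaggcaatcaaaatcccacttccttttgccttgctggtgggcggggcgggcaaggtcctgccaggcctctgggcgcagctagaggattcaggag
Gbp5: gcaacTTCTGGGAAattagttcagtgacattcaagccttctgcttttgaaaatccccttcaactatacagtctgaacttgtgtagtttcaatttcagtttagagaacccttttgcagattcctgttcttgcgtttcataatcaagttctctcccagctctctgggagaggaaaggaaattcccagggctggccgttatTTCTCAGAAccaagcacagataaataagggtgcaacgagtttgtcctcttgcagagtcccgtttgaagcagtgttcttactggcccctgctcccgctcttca
Irf1: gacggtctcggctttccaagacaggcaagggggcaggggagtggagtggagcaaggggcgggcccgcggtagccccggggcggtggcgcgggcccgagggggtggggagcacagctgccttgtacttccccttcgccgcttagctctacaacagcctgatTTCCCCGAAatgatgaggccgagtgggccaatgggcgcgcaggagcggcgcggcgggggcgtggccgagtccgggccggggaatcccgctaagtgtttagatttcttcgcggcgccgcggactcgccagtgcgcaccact
The match in the Socs3 window is TTCTTAGAA, beginning 154 bases upstream of the start site, that of Plscr1 is TTCCGAGAA at 90 bases, and that of Irf1 is TTCCCCGAA, also at 90 bases. The Gbp5 window holds TTCTGGGAA at 245 bases and TTCTCAGAA at 52 bases upstream. This motif was found in 8.3% of the 32851 windows of all genes in the RefSeq table and in 7.07% of the 10775 windows of the 8438 tested genes that could be matched by symbol. Of the 15 largest rises 13 were matched, and 12.5% of their 16 windows held it. It was found in 6.62% of the 921 windows of genes called at least 2-fold higher, and in 0.0% of the 10 windows of STAT3 response genes (9 of 12 tested members matched). Among interferon-stimulated genes, most of whose called members fell, 29 of 42 tested members were matched and 27.8% of their 36 windows held it. A match is a string of letters within this window and says nothing of binding.

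The second set holds motifs long known from cell cycle promoters. Ccnb2 (chr9:70421505-70421804, minus strand), Cdca8 (chr4:124936868-124937167, minus strand) and Kif23 (chr9:61946750-61947049, minus strand) encode mitotic proteins and are shown with CCAAT, which reads ATTGG where it lies on the other strand, and with the element TTTGAA in capitals. Mcm3 (chr1:20820263-20820562, minus strand), part of the replicative helicase, is shown with matches to the E2F elements, either way round.
Ccnb2: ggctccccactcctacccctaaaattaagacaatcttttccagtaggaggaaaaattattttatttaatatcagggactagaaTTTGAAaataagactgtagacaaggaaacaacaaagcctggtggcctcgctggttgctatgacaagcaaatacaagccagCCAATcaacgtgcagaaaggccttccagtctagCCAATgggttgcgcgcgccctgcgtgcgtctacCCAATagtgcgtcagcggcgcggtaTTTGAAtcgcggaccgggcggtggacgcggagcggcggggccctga
Cdca8: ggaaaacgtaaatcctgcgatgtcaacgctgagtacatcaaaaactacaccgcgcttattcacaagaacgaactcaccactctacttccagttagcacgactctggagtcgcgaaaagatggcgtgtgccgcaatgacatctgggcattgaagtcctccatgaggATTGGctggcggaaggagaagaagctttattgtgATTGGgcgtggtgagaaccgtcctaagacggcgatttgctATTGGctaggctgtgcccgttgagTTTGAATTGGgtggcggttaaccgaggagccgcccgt
Kif23: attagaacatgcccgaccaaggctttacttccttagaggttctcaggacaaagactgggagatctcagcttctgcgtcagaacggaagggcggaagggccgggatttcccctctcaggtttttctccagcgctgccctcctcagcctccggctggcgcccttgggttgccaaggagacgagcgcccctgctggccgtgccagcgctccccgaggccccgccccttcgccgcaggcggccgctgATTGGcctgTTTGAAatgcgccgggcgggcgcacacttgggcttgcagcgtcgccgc
Mcm3: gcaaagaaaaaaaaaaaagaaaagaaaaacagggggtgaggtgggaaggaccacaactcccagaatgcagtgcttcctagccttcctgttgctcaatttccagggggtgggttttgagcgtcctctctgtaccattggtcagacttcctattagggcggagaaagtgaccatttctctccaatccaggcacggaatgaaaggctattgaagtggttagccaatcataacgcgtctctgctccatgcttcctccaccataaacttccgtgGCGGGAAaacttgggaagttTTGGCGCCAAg
CCAAT was found in 81.0% of the 21 windows of the mitotic kinase and cyclin genes (21 of 29 tested members matched) and in 70.4% of the 54 windows of the spindle and kinesin genes (48 of 54 matched), against 38.6% of the windows of all tested genes and 37.4% of all windows. TTTGAA was found in 47.6% and 63.0% of those windows, against 12.6% for tested genes and 17.9% for all. Of the 40 windows of the DNA replication genes (35 of 42 matched), 22.5% held TTGGCGC and 37.5% held TTCCCGC, against 4.32% and 8.49% for tested genes and 2.45% and 4.6% for all. In Cdca8 the TTTGAA that begins 13 bases after the start overlaps an ATTGG by its last base, and in Mcm3 the TTGGCGC and GCGCCAA near the end of the window overlap. Among genes called at least 4-fold lower, 64 of 91 were matched, and TGANTCA, the letters of the AP-1 site, stood in 19.8% of their 86 windows, against 9.92% of the 393 windows of genes called at least 2-fold lower, 4.87% for tested genes and 7.81% for all.

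The values are TPM per gene (transcripts as a share of the library's total, corrected for transcript length) as the authors deposited them, which keep no read counts, so the depth of each library is unknown. Of 35604 genes listed, 12147 reached 1 TPM in at least 3 of the 27 libraries and were tested on the log2(TPM + 1) scale with limma. Log2 differences below are means with IL-21 minus means without it on that scale, with their standard error (SE) and n = 3 per group, and understate the change of low genes. Adjusted p is Benjamini-Hochberg over all tested genes, and called means below 0.05. Correlations between the 6 libraries were 0.943 to 0.982 within a group and 0.909 to 0.934 between groups. Mitochondrially encoded transcripts took 6.56% to 8.14% of TPM with IL-21 added and 8.51% to 11.8% with anti-CD40 alone, ribosomal protein genes 18.5% to 24.1% and 25.1% to 29.3%, and pseudogenes 8.01% to 11.4% and 11.4% to 13.6%. The SD over genes of a library's deviation from its group mean was 0.230 to 0.445 for the 6 libraries compared, highest in replicate 3 of the IL-21 group. Over all 27 libraries it was highest in replicate 1 of the anti-CD40 plus IL-4 24 h group, at 0.499. In replicate 1 of the naive group it was 0.417, which was not the second highest. Replicate 3 of the IL-21 group (0.445), replicate 3 of the anti-CD40 plus IL-4 24 h group (0.422) and others lay above it. These replicate 1 libraries are not part of the comparison, but both enter the pooled spread, and without them 4139 genes were called in place of 2936.

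The labelled cell type was borne out by its markers, with a change in some of them. Summed TPM of 10 B cell markers was 1988 to 2806 with IL-21 added and 4273 to 4976 with anti-CD40 alone, the groups not overlapping, and 3 of the 10 fell (6 after median-of-ratios rescaling): Ms4a1 (CD20), Cd79b and Fcmr. Of 16 T cell markers 5 passed the filter, Cd2 and Lat rose and Cd5 fell, with 147 to 184 TPM with IL-21 added against 47.4 to 74.0 with anti-CD40 alone in sum over all 16. Most of that sum was Cd2, which mouse B cells also express and which stood at 240.3 ± 77.0 TPM (SD) in naive cells. Cd3d, Cd3e, Cd3g, Cd4 and Cd8a reached at most 1.51 TPM in any of the 6 libraries. Summed markers of NK cells (2.23 to 4.96 with IL-21 added, 8.65 to 13.0 with anti-CD40 alone, where most of the sum was Ccl5), macrophages (2.87 to 8.49 and 4.12 to 5.33), neutrophils (0 to 0.274 and 0 to 0.228), dendritic cells (34.7 to 41.0 and 32.8 to 41.0) and erythroid cells or platelets (30.2 to 48.2 and 35.2 to 40.7) were also measured, and Cd68, S100a9 and Ly6g were listed at 0 in all 6. The part of these shifts in the results below was not tested. In such bulk RNA, fewer cells of a type and less RNA per cell cannot be told apart.

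IL-21 changed a large share of the transcriptome at 24 h. Of the 12147 genes tested, 2936 were called (24.2%), 2167 of them higher with IL-21 (17.8%) and 769 lower (6.33%). Changed at least 2-fold on the log2(TPM + 1) scale were 1006 higher (8.28%) and 418 lower (3.44%), at least 4-fold 182 and 91, and at least 8-fold 33 and 19. In 4650 genes (38.3%) the 2 groups did not overlap. The balance of rises and falls depended on scaling: 73.8% of called genes were higher on deposited TPM, against 55.5% after median-of-ratios rescaling, where the median log2 difference over all genes was 0.0046 in place of 0.23. Differences are therefore read relative to 0.23 where small, and list medians are given above or below it. Of the called genes, 1321 lost the call when at least 1 of the 6 libraries was left out, and of those changed at least 2-fold 341 did.

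**Figure D1:**
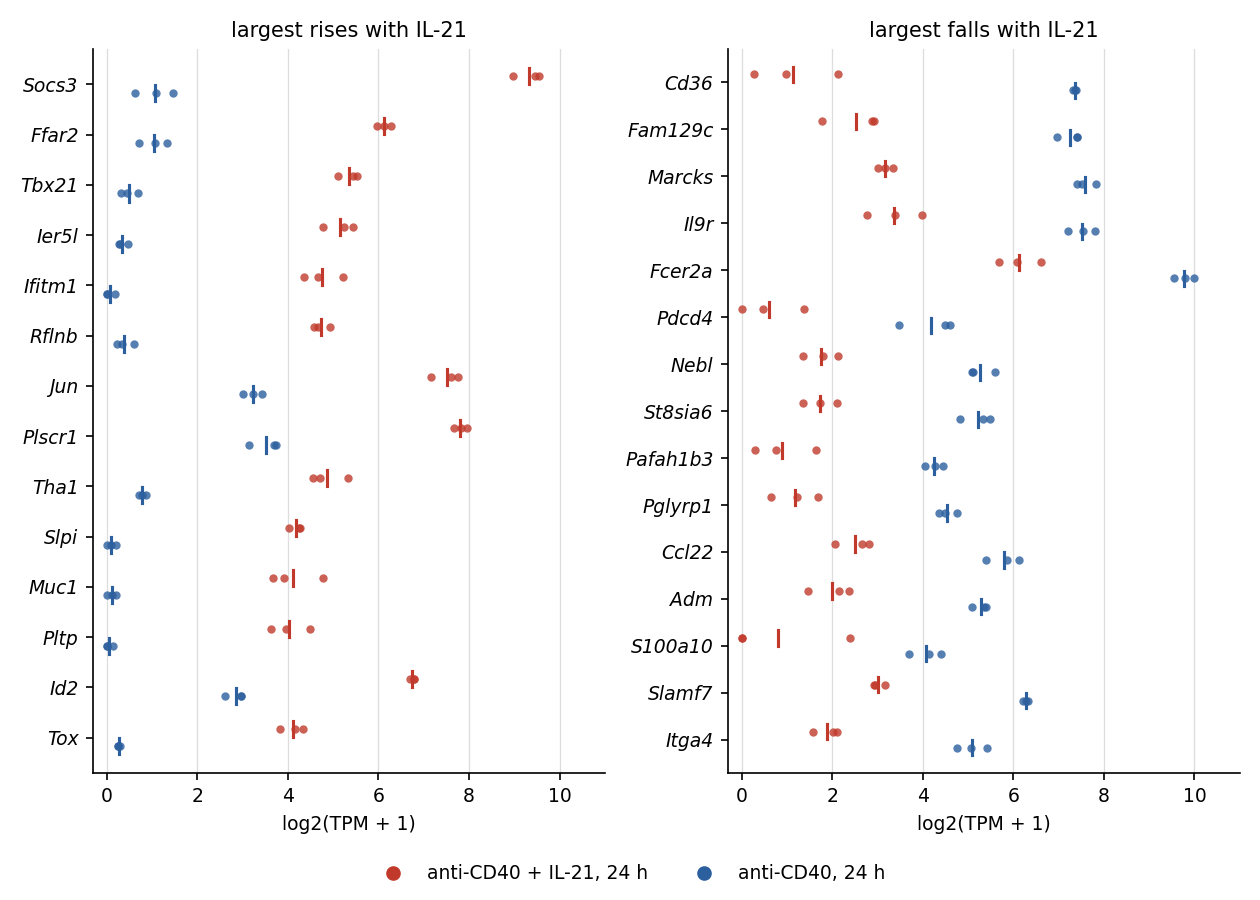
Expression of 14 of the 15 genes with the largest rises (left) and of the 15 with the largest falls (right), as log2(TPM + 1) on the horizontal axis; points are the 3 libraries of each group, anti-CD40 plus IL-21 drawn above anti-CD40 alone, and vertical strokes are means. Genes were drawn only where the groups do not overlap, and Socs3 (8.27) and Cd36 (-6.23) have the largest mean differences on each side.

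Among the 15 largest rises, the feedback inhibitor Socs3 (chromosome 11, positions 117966079 to 117970047, minus strand, GRCm38 by GENCODE M21) stood first. Socs3 had 707, 748 and 503 TPM with IL-21 added, against 1.14, 0.551 and 1.77 TPM with anti-CD40 alone. The log2 difference was 8.27 ± 0.27 (adjusted p = 1.95e-15), and Socs3 in naive cells averaged 13.1 ± 5.67 TPM (SD, n = 3), so anti-CD40 alone lay below the uncultured level and IL-21 far above it. Plscr1, a phospholipid scramblase known as an interferon-inducible gene, had 225, 246 and 201 TPM with IL-21 added, against 11.99, 7.78 and 12.3 TPM with anti-CD40 alone. Its log2 difference was 4.28 ± 0.22 (adjusted p = 3.22e-12), with every IL-21 library more than 10 times any library without. The membrane protein Ifitm1 had 24.2, 19.5 and 36.2 TPM with IL-21 added, against 0, 0 and 0.140 TPM with anti-CD40 alone. Its log2 difference was 4.68 ± 0.24, and it was listed at 0 in 2 of the 3 libraries without IL-21.

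The other large rises held receptors, secreted proteins and regulators. Ffar2, a receptor for short-chain fatty acids, rose by 5.09 ± 0.22 on the log2 scale. Slpi (a secreted protease inhibitor), Muc1 (a mucin) and Pltp (phospholipid transfer protein) were each near 0 TPM with anti-CD40 alone and differed by 4.07 ± 0.32, 4.01 ± 0.30 and 3.99 ± 0.31. Tha1, threonine aldolase, differed by 4.08 ± 0.31.

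Among regulators, Id2, which blocks DNA binding by E proteins, had 102, 109 and 109 TPM with IL-21 added, against 6.83, 5.11 and 6.82 TPM with anti-CD40 alone. The spread within each group was small, and the difference was 3.90 ± 0.13 (adjusted p = 1.95e-15). Of the other 5 tested ID and E protein genes, Tcf3 fell by 0.89 ± 0.27, a call lost without replicate 1 or 3 of the anti-CD40 group or replicate 3 of the IL-21 group (highest adjusted p = 0.0911), and the rest did not pass. Tox, an HMG-box factor known from T cells, had 16.9, 19.3 and 13.2 TPM with IL-21 added, against 0.186, 0.196 and 0.223 TPM with anti-CD40 alone (log2 difference 3.85 ± 0.17); it was nearly absent without IL-21.

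Among the genes that fell, Cd36 (chromosome 5, positions 17781690 to 17888801, minus strand), a scavenger receptor and fatty acid transporter, had 3.39, 0.974 and 0.208 TPM with IL-21 added, against 159.7, 165 and 164 TPM with anti-CD40 alone and differed by -6.23 ± 0.40 (adjusted p = 1.51e-10). The 3 libraries without IL-21 lay close together, while those with it spread over more than 10-fold near the bottom of the scale. Marcks, a substrate of protein kinase C that links membrane and actin, had 7.92, 9.09 and 7.02 TPM with IL-21 added, against 169, 183 and 227 TPM with anti-CD40 alone (log2 difference -4.42 ± 0.22). The IL-9 receptor chain Il9r had 9.46, 14.7 and 5.77 TPM with IL-21 added, against 185, 146 and 222 TPM with anti-CD40 alone (log2 difference -4.14 ± 0.33). For both genes the groups lay more than 9-fold apart at their nearest libraries.

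Further falls reached several functions. Nebl (nebulette, an actin-binding protein) had 2.47, 1.55 and 3.34 TPM with IL-21 added, against 33.5, 47.3 and 32.9 TPM with anti-CD40 alone (log2 difference -3.51 ± 0.31). St8sia6, a sialyltransferase, had 2.33, 3.31 and 1.55 TPM with IL-21 added, against 39.3, 27.3 and 43.6 TPM with anti-CD40 alone (log2 difference -3.48 ± 0.22). Itga4, the alpha-4 integrin chain that pairs with beta-1 and beta-7, had 3.04, 3.30 and 1.96 TPM with IL-21 added, against 32.5, 25.9 and 41.7 TPM with anti-CD40 alone (log2 difference -3.18 ± 0.28). In each the lowest library without IL-21 was well above the highest with it. The rule for the largest falls took only genes without overlap. Pafah1b3, Pglyrp1 and Adm fell by 3.36, 3.35 and 3.29 on the log2 scale. S100a10, which forms a complex with annexin A2, was listed at 0 in 2 IL-21 libraries and at 4.25 TPM in the third, and fell by 3.28 ± 0.68.

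The receptor and its signalling chain moved in both directions. Of 13 tested IL-21 receptor, JAK and STAT genes 5 rose and 2 fell, with a median 0.20 below that of all genes; without replicate 2 of the IL-21 group 3 rose, and after median-of-ratios rescaling 4 fell. The receptor gene Il21r rose by 1.84 ± 0.36. Stat3, the main effector, had 157, 199 and 89.1 TPM with IL-21 added, against 35.7, 33.9 and 49.7 TPM with anti-CD40 alone (log2 difference 1.82 ± 0.34, adjusted p = 0.00042). Jak1 had 307, 385 and 219 TPM with IL-21 added, against 114, 96.4 and 153 TPM with anti-CD40 alone (log2 difference 1.31 ± 0.29). The third IL-21 library was lowest for both and still above every library without IL-21. Jak2, which serves other cytokine receptors, fell by 0.94 ± 0.20.

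Inhibitors that act back on cytokine signals were raised in part. Of 16 tested feedback genes 4 rose, a share not far above the 17.8% of all tested genes, and none fell. Their median lay 0.29 above that of all genes. Without replicate 1 of the naive and anti-CD40 plus IL-4 24 h groups 7 rose, while 1 fell after median-of-ratios rescaling. Next to Socs3 the genes that rose were Socs1, with 15.3, 13.7 and 10.97 TPM with IL-21 added, against 1.34, 1.61 and 1.42 TPM with anti-CD40 alone (log2 difference 2.53 ± 0.32), the phosphatase Ptpn1, with 571, 699 and 407 TPM with IL-21 added, against 98.0, 89.6 and 122 TPM with anti-CD40 alone (log2 difference 2.40 ± 0.33), and the phosphatase Ptpn2 (log2 difference 0.91 ± 0.21). For Socs1 and Ptpn1 the groups were more than 3-fold apart at their nearest libraries. Cish, a STAT5 target, was low in all 6 libraries, at most 1.03 TPM, and was not called at 24 h (log2 difference 0.58 ± 0.31), whereas its difference at 6 h was 2.74 ± 0.31 and the change between times was called (change -2.16 ± 0.43, adjusted p = 0.00377).

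Of 12 tested genes known to respond to STAT3 (17 listed), 8 rose, 4 including Myc were not called and none fell (1 fell after median-of-ratios rescaling), with a median 0.95 above that of all genes. Cebpb, a bZIP factor of the acute phase response, had 35.3, 33.9 and 26.7 TPM with IL-21 added, against 4.49, 3.69 and 3.78 TPM with anti-CD40 alone (log2 difference 2.72 ± 0.21). The atypical I-kB protein Bcl3 had 201, 214 and 133 TPM with IL-21 added, against 41.1, 30.5 and 38.6 TPM with anti-CD40 alone (log2 difference 2.26 ± 0.35). Pim1, a survival kinase, had 122, 143 and 100.5 TPM with IL-21 added, against 25.6, 26.2 and 33.3 TPM with anti-CD40 alone (log2 difference 2.06 ± 0.29). All 3 were 3-fold or more apart between the nearest libraries of the groups. Nfil3, Batf and Il10 rose less at 24 h than at 6 h, as given with the time course.

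AP-1 factors were led by Jun. Of 13 tested AP-1 genes 5 rose and none fell: Jun (log2 difference 4.29 ± 0.29), Jund, with 727, 630.2 and 498 TPM with IL-21 added, against 200.1, 159 and 197 TPM with anti-CD40 alone (log2 difference 1.72 ± 0.27), Junb (log2 difference 1.61 ± 0.28), Batf (log2 difference 1.61 ± 0.12) and Fos (log2 difference 0.83 ± 0.27). Fos stayed at or below 1.73 TPM and lost its call without any single library other than replicate 1 of the IL-21 group (highest adjusted p = 0.148). Brakes on the MAP kinase pathway split. Spry1, an inhibitor of receptor tyrosine kinase signals, had 3.00, 3.32 and 1.26 TPM with IL-21 added, against 0.129, 0 and 0 TPM with anti-CD40 alone (log2 difference 1.71 ± 0.18). The ERK phosphatase Dusp6 had 3.94, 4.30 and 3.68 TPM with IL-21 added, against 12.6, 9.48 and 15.2 TPM with anti-CD40 alone (log2 difference -1.41 ± 0.27). In the same list of 21 immediate early and phosphatase genes 6 rose and 3 fell, 5 after median-of-ratios rescaling, and Ier5 fell by 1.61 ± 0.28.

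Of the other cytokine receptor chains 4 of 23 tested were higher and 3 lower, a share of rises near the 17.8% of all tested genes. Il1r1, the signalling IL-1 receptor, had 4.49, 6.23 and 4.36 TPM with IL-21 added, against 0.0585, 0.0788 and 0.0190 TPM with anti-CD40 alone (log2 difference 2.50 ± 0.15). Il18r1 had 4.22, 3.27 and 2.53 TPM with IL-21 added, against 0.486, 0.200 and 0.489 TPM with anti-CD40 alone (log2 difference 1.63 ± 0.19). Both were nearly absent without IL-21. Il6ra, the IL-6 receptor chain, had 0.725, 0.939 and 0.613 TPM with IL-21 added, against 6.54, 5.59 and 7.74 TPM with anti-CD40 alone (log2 difference -2.11 ± 0.27), and Il5ra fell by 1.22 ± 0.16. Each of these 4 had groups that did not overlap.

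Of 13 tested genes of T-bet expressing and atypical B cells (16 listed), 7 rose, 5 were not called and 1 fell, with a median 1.10 above that of all genes. Beside Tbx21, Zeb2 had 29.9, 47.6 and 18.8 TPM with IL-21 added, against 4.42, 4.68 and 2.21 TPM with anti-CD40 alone (log2 difference 2.74 ± 0.33) and the transcriptional repressor Zbtb32 had 21.8, 25.1 and 18 TPM with IL-21 added, against 2.90, 2.16 and 2.44 TPM with anti-CD40 alone (log2 difference 2.69 ± 0.23). The integrin chains that mark such cells were low but shifted: Itgam (CD11b) had 4.47, 5.16 and 2.52 TPM with IL-21 added, against 0, 0.113 and 0.275 TPM with anti-CD40 alone (log2 difference 2.13 ± 0.21). Itgax (CD11c) had 2.48, 3.89 and 2.19 TPM with IL-21 added, against 0.137, 0.0623 and 0.287 TPM with anti-CD40 alone (log2 difference 1.71 ± 0.20). Their partner chain Itgb2 had 59.9, 71.3 and 33.6 TPM with IL-21 added, against 8.97, 7.88 and 10.9 TPM with anti-CD40 alone (log2 difference 2.39 ± 0.44), and the inhibitory receptor Fcrl5 differed by 1.74 ± 0.32. Hopx was the member that fell (log2 difference -0.50 ± 0.13). Itgax is also a marker of dendritic cells, whose summed list did not separate the groups (above). That sum also holds Bst2, a member of the interferon-stimulated list. The dendritic cell marker Flt3 was low, at 0.576, 1.53 and 0.904 TPM with IL-21 added, against 0.034, 0.021 and 0.091 TPM with anti-CD40 alone. Xcr1 went the other way, at 0 with IL-21 added, and Siglech overlapped between groups. A part of dendritic cells in these shifts was not tested.

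Immunoglobulin constant regions shifted by isotype. Ighg2b had 64.6, 74.7 and 61.8 TPM with IL-21 added, against 12.3, 11.2 and 18.9 TPM with anti-CD40 alone (log2 difference 2.20 ± 0.31, adjusted p = 1.54e-05) and Ighg2c had 17.2, 20.8 and 13.1 TPM with IL-21 added, against 4.68, 2.95 and 5.96 TPM with anti-CD40 alone (log2 difference 1.72 ± 0.37). Ighg1 did not pass, with 8.95, 7.13 and 2.23 TPM with IL-21 added, against 2.06, 1.13 and 3.05 TPM with anti-CD40 alone (log2 difference 1.10 ± 0.42, adjusted p = 0.0625). Ighg2b and Ighg2c of all IL-21 libraries thus exceeded those of all libraries without, while Ighg1 of the third IL-21 library lay among the others. Germline and switched transcripts cannot be told apart in gene-level TPM. The lambda constant genes Iglc1, Iglc2 and Iglc3 fell by 1.68, 1.64 and 2.34 on the log2 scale, but they are near-identical copies whose reads a counter can split, so their single values are uncertain.

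Plasma cell genes were split, 6 of 17 tested higher and 5 lower, with a median 0.28 below that of all genes. Tent5c, a poly(A) polymerase of antibody-secreting cells, had 10.4, 12.7 and 8.58 TPM with IL-21 added, against 1.12, 0.994 and 1.11 TPM with anti-CD40 alone (log2 difference 2.46 ± 0.21). Derl3, of ER-associated degradation, had 11.2, 10.7 and 8.62 TPM with IL-21 added, against 1.49, 0.786 and 1.19 TPM with anti-CD40 alone (log2 difference 2.38 ± 0.38). For both every IL-21 library was above every other. On the other side Mzb1, an ER cochaperone of antibody assembly, had 136, 111 and 167 TPM with IL-21 added, against 391, 347 and 339 TPM with anti-CD40 alone (log2 difference -1.39 ± 0.14). The BAFF and APRIL receptor Tnfrsf13b had 65.7, 82.6 and 50.1 TPM with IL-21 added, against 219, 142 and 234 TPM with anti-CD40 alone (log2 difference -1.57 ± 0.26). The number of falling members was 2 without replicate 3 of the IL-21 group and 3 without replicate 1 or 3 of the anti-CD40 group. Of ER chaperone and secretory genes 10 of 44 tested rose and none fell, a share of rises not far above the 17.8% of all tested genes. With the compared libraries fitted alone 16 rose. Without replicate 1 of the naive and anti-CD40 plus IL-4 24 h groups 18 rose and 1 fell. Sdf2l1 led, with 226, 246 and 196 TPM with IL-21 added, against 62.0, 48.9 and 69.0 TPM with anti-CD40 alone (log2 difference 1.88 ± 0.26).

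The B cell receptor complex and its coreceptors leaned lower: 3 of 26 tested rose and 6 fell, and 11 fell after median-of-ratios rescaling. Ms4a1 (CD20) had 246, 210.4 and 327 TPM with IL-21 added, against 953, 1118 and 886 TPM with anti-CD40 alone (log2 difference -1.93 ± 0.19), Cd79b had 301, 262 and 253 TPM with IL-21 added, against 746, 686 and 729.6 TPM with anti-CD40 alone (log2 difference -1.41 ± 0.24). The complement receptor Cr2 (CD21) had 20.2, 30.9 and 20.2 TPM with IL-21 added, against 134, 116 and 171 TPM with anti-CD40 alone (log2 difference -2.52 ± 0.31). None of these overlapped between groups. The IgM receptor Fcmr had 73.1, 88.3 and 50.4 TPM with IL-21 added, against 441, 353 and 479 TPM with anti-CD40 alone (log2 difference -2.59 ± 0.64), and the inhibitory Fc receptor Fcgr2b rose by 1.27 ± 0.16.

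Regulators of B cell identity and of the germinal centre moved in both directions. Of 22 tested identity factors 7 rose and 2 fell (5 after median-of-ratios rescaling), and 3 of the 7 held in every fit that left out a library: Id2, Bach2 and Spi1. Bach2, a repressor that holds back plasma cell fate, had 41.8, 59.2 and 31.5 TPM with IL-21 added, against 10.2, 11.1 and 16.99 TPM with anti-CD40 alone (log2 difference 1.70 ± 0.28). Spi1 (PU.1) had 126, 129.9 and 82.2 TPM with IL-21 added, against 43.1, 26.7 and 43.9 TPM with anti-CD40 alone (log2 difference 1.55 ± 0.35). Lef1, a WNT pathway factor of immature B cells, had 2.69, 2.52 and 3.01 TPM with IL-21 added, against 8.07, 7.61 and 11.9 TPM with anti-CD40 alone (log2 difference -1.42 ± 0.31). For these 3 the groups did not overlap. Of 16 germinal centre genes 7 rose and 3 fell, among them Mef2b, a factor known to activate Bcl6, with 81.2, 87.6 and 56.2 TPM with IL-21 added, against 18.8, 17.6 and 21.8 TPM with anti-CD40 alone (log2 difference 1.88 ± 0.38), and Fas, which fell by 0.84 ± 0.22.

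Of 8 GIMAP GTPases, small proteins tied to lymphocyte survival, 4 rose and none fell at 24 h, and 7 rose at 6 h. The change between the times was called for none of the 8. Gimap3 had 163, 198 and 126 TPM with IL-21 added, against 43.6, 34.6 and 52.2 TPM with anti-CD40 alone (log2 difference 1.87 ± 0.28); reads may be shared between such close copies. Among 14 NOTCH pathway genes 4 rose and 3 fell, set against 17.8% and 6.33% of all tested genes. The ubiquitin ligase Dtx1 had 92.1, 96.2 and 59.2 TPM with IL-21 added, against 22.8, 20.8 and 31.5 TPM with anti-CD40 alone (log2 difference 1.67 ± 0.29). The target gene Hes1 fell by 1.12 ± 0.23. Among 20 NF-kB genes 3 rose and 1 fell (4 after median-of-ratios rescaling), near the 17.8% and 6.33% of all tested genes, and the deubiquitinase Otulin had 374, 376 and 357 TPM with IL-21 added, against 118, 93.5 and 117 TPM with anti-CD40 alone (log2 difference 1.75 ± 0.12). Of 45 cytoskeleton and migration regulators 10 rose and 9 fell. Their share of rises was not far above the 17.8% of all tested genes, and their share of falls was above the 6.33%. The intermediate filament Vim had 296, 289 and 228 TPM with IL-21 added, against 48.9, 52.5 and 63.8 TPM with anti-CD40 alone (log2 difference 2.28 ± 0.28). The G protein regulator Rgs2 had 4.14, 1.501 and 5.35 TPM with IL-21 added, against 18.6, 18.7 and 23.5 TPM with anti-CD40 alone (log2 difference -2.29 ± 0.31). Neither overlapped between groups, and they moved in opposite directions. The fatty acid receptor Ffar1, next to Ffar2, had 15.0, 23.9 and 14.6 TPM with IL-21 added, against 3.87, 3.30 and 5.64 TPM with anti-CD40 alone (log2 difference 1.83 ± 0.24).

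Of 27 tested costimulatory and checkpoint genes, surface molecules for contact with T cells, 7 rose and 10 fell, or 7 each without replicate 2 of the anti-CD40 group or replicate 1 of the IL-21 group. Their median lay 0.41 below that of all genes. The SLAM family of receptors split within itself. Slamf1 had 51.3, 63.1 and 39.2 TPM with IL-21 added, against 11.1, 8.87 and 14.7 TPM with anti-CD40 alone (log2 difference 2.06 ± 0.27). Slamf9 rose by 1.06 ± 0.23. Slamf7 had 6.63, 7.99 and 6.70 TPM with IL-21 added, against 73.6, 77.0 and 78.7 TPM with anti-CD40 alone (log2 difference -3.26 ± 0.17). Slamf6, Cd84 and Cd244a fell by 1.23, 1.59 and 1.49 on the log2 scale, and their groups did not overlap. Ly9 and Cd48 were also called lower. Ly9 lost its call without replicate 2 of the anti-CD40 group or replicate 1 of the IL-21 group (highest adjusted p = 0.0808), and Cd48 without replicate 1 or 2 of either group (highest adjusted p = 0.171).

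Of the inhibitory receptors in the tested costimulatory and checkpoint list, Lag3 and Pdcd1 rose, and Tigit, Havcr2, Btla and Vsir were not called. Lag3 had 3.44, 2.52 and 2.47 TPM with IL-21 added, against 0.262, 0.309 and 0.325 TPM with anti-CD40 alone (log2 difference 1.54 ± 0.25). Pdcd1 (PD-1) had 2.27, 2.08 and 1.12 TPM with IL-21 added, against 0.453, 0.251 and 0.547 TPM with anti-CD40 alone (log2 difference 0.98 ± 0.19). The PD-1 ligand Cd274 fell, with 4.498, 4.49 and 3.33 TPM with IL-21 added, against 10.3, 8.28 and 11.97 TPM with anti-CD40 alone (log2 difference -1.13 ± 0.22). Tnfsf4 (OX40 ligand) rose by 1.45 ± 0.22, and Tnfrsf18 (GITR) had 6.61, 4.33 and 6.95 TPM with IL-21 added, against 31.4, 25.04 and 26.8 TPM with anti-CD40 alone (log2 difference -2.06 ± 0.22).

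Cytokines and TNF ligands that B cells can make fell more often than they rose. Of 28 listed only 11 passed the filter; 6 fell and 2 rose, with a median 1.01 below that of all genes. Il15 had 0.370, 0.0879 and 0.189 TPM with IL-21 added, against 4.02, 5.91 and 3.54 TPM with anti-CD40 alone (log2 difference -2.16 ± 0.26). Il12a, a chain of IL-12 and IL-35, had 13.3, 20.2 and 16.1 TPM with IL-21 added, against 43.2, 35.7 and 45.6 TPM with anti-CD40 alone (log2 difference -1.29 ± 0.24). Neither gene overlapped between groups. Ebi3, a chain of IL-27 and IL-35, had 11.6, 10.2 and 6.93 TPM with IL-21 added, against 31.4, 21.95 and 29.4 TPM with anti-CD40 alone (log2 difference -1.44 ± 0.39). Il16 had 31.8, 33.0 and 24.6 TPM with IL-21 added, against 84.7, 68.3 and 91.2 TPM with anti-CD40 alone (log2 difference -1.42 ± 0.21). Their groups did not overlap either. Among 9 tested chemokine genes Ccl5 had 1.39, 1.41 and 0 TPM with IL-21 added, against 6.75, 11.9 and 9.01 TPM with anti-CD40 alone (log2 difference -2.48 ± 0.40) and fell together with Ccl22 (log2 difference -3.29 ± 0.36).

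Receptors for migration and adhesion moved both ways, 7 of 30 tested higher and 7 lower, or 5 and 12 after median-of-ratios rescaling. Over all tested genes 17.8% were higher and 6.33% lower, and the list median lay 0.31 below that of all genes. Ccr7, which guides lymphocytes to the T cell zone, had 6.94, 5.37 and 5.39 TPM with IL-21 added, against 41.5, 35.3 and 45.1 TPM with anti-CD40 alone (log2 difference -2.59 ± 0.51). The cannabinoid receptor Cnr2 had 5.00, 5.36 and 3.44 TPM with IL-21 added, against 25, 20.9 and 30.2 TPM with anti-CD40 alone (log2 difference -2.24 ± 0.36). The scavenging receptor Ackr3 had 0.270, 0.0859 and 0.0999 TPM with IL-21 added, against 5.06, 3.74 and 5.05 TPM with anti-CD40 alone (log2 difference -2.28 ± 0.21). The tetraspanin Cd9 fell by 1.86 ± 0.30. In all 4 every IL-21 library was below every library without it, opposite to Itgb2.

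Interferon-stimulated genes were lower where called, with 1 exception. Of 42 tested (49 listed) 14 fell and 1 rose, with a median 0.58 below that of all genes, and 20 fell after median-of-ratios rescaling. The guanylate-binding proteins, large GTPases of cell-autonomous immunity, led. Gbp5 had 3.37, 4.47 and 2.21 TPM with IL-21 added, against 27.7, 23.5 and 33.0 TPM with anti-CD40 alone (log2 difference -2.76 ± 0.27, adjusted p = 7.64e-08). Gbp3 had 9.94, 10.4 and 13.6 TPM with IL-21 added, against 70.6, 66.2 and 69.8 TPM with anti-CD40 alone (log2 difference -2.52 ± 0.17). Gbp2 had 5.17, 4.43 and 3.15 TPM with IL-21 added, against 26.2, 25.9 and 25.6 TPM with anti-CD40 alone (log2 difference -2.38 ± 0.20). For all 3 the groups were more than 4-fold apart at their nearest libraries. As the Gbp genes are close paralogs, reads may be shared between them and single values are uncertain. Ifi27l2a had 49.2, 50.2 and 70.4 TPM with IL-21 added, against 232, 306 and 194 TPM with anti-CD40 alone (log2 difference -2.08 ± 0.21), and naive cells averaged 622 ± 175 TPM (SD, n = 3).

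The exception was Ido1, the tryptophan-degrading enzyme, with 5.75, 5.21 and 6.92 TPM with IL-21 added, against 0.109, 0.321 and 0.1005 TPM with anti-CD40 alone (log2 difference 2.56 ± 0.17). Irf1, a regulator of the response, did not pass: it had 31.8, 36.0 and 23.3 TPM with IL-21 added, against 37.8, 30.0 and 48.6 TPM with anti-CD40 alone (log2 difference -0.34 ± 0.25, adjusted p = 0.353), though it passed after median-of-ratios rescaling, at -0.60, and Isg15 differed by -0.35 ± 0.26 (adjusted p = 0.352). Plscr1 and Ifitm1, the interferon-inducible genes among the largest rises, were not members of this list.

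**Figure D2:**
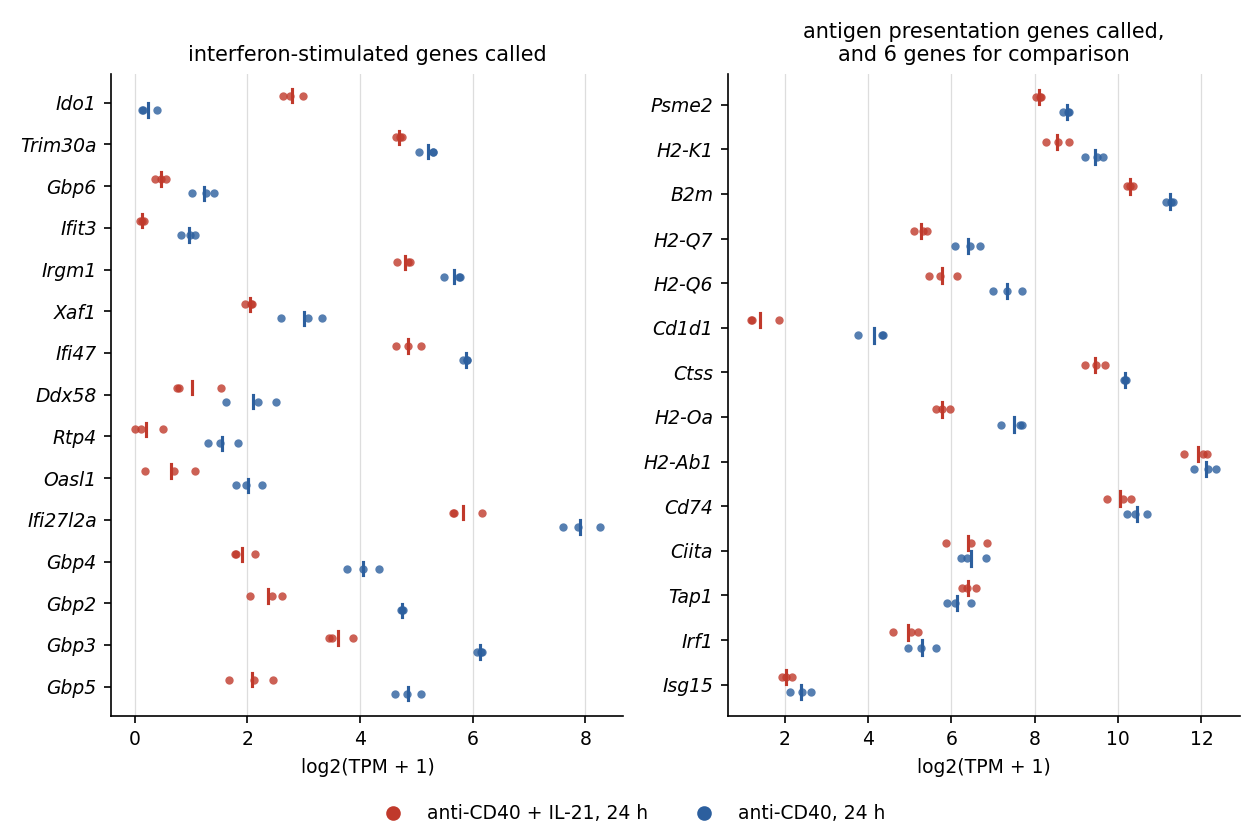
Levels as log2(TPM + 1) for the 15 interferon-stimulated genes called at 24 h (left) and for called antigen presentation genes with 6 uncalled genes for comparison (right); points are the 3 libraries of each group, anti-CD40 plus IL-21 drawn above anti-CD40 alone, and strokes are means. Ido1 is the 1 gene on the left that is higher with IL-21, and the lower 6 rows on the right overlap between groups.

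Antigen presentation genes fell in part. Of 22 tested MHC class I presentation genes 6 fell and none rose, with a median 0.58 below that of all genes, and of 13 class II genes 2 fell and none rose, 5 after median-of-ratios rescaling. Cd1d1, which presents lipids to NKT cells, had 1.31, 1.28 and 2.63 TPM with IL-21 added, against 19.5, 12.5 and 19.1 TPM with anti-CD40 alone (log2 difference -2.73 ± 0.25). The class I light chain B2m had 1322, 1195 and 1252 TPM with IL-21 added, against 2548, 2269 and 2471 TPM with anti-CD40 alone (log2 difference -0.95 ± 0.16). H2-Oa, a modulator of class II peptide loading, had 53.6, 61.2 and 48.5 TPM with IL-21 added, against 199, 146 and 205 TPM with anti-CD40 alone (log2 difference -1.72 ± 0.36). All 3 separated the groups. The class II chain H2-Ab1 did not pass, with 4209.7, 4520.0 and 3065 TPM with IL-21 added, against 4590.4, 3646 and 5261 TPM with anti-CD40 alone (log2 difference -0.20 ± 0.57), nor did Ciita, the master regulator of class II (log2 difference -0.09 ± 0.32).

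Death and survival genes leaned in opposite directions. Of 11 tested pro-apoptotic genes 5 rose and 2 fell, with a median 0.54 above that of all genes, and of 14 anti-apoptotic genes 1 rose and 5 fell, with a median 0.76 below it. Casp8, the initiator caspase of death receptors, had 79.5, 86.2 and 89.0 TPM with IL-21 added, against 32.2, 26.3 and 33.5 TPM with anti-CD40 alone (log2 difference 1.45 ± 0.13). Bcl2l11 (BIM) had 15.3, 19.8 and 15.9 TPM with IL-21 added, against 5.06, 5.38 and 6.51 TPM with anti-CD40 alone (log2 difference 1.43 ± 0.23). Bcl2 had 4.88, 6.34 and 3.48 TPM with IL-21 added, against 13.2, 11.4 and 17.1 TPM with anti-CD40 alone (log2 difference -1.35 ± 0.24). These groups did not overlap. Bcl2a1b and Bcl2a1d, nearly identical copies of A1, fell by 2.40 and 1.87 on the log2 scale, with the same uncertainty as other copies. The list also holds the copy Bcl2a1a, so the count of 5 falls and the list median share this uncertainty. Bid, a pro-apoptotic link to mitochondria, fell by 2.06 ± 0.40. Birc5 (survivin), the anti-apoptotic member that rose (log2 difference 1.32 ± 0.18), is also part of the mitotic passenger complex.

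Quiescence genes fell more often than they rose, 7 of 26 tested against 2 (1 rose without any single library other than replicate 3 of the IL-21 group, and 3 without that one). Btg1, an antiproliferative factor, had 41.1, 56.6 and 40.3 TPM with IL-21 added, against 212, 175 and 258 TPM with anti-CD40 alone (log2 difference -2.20 ± 0.27). Txnip, the thioredoxin inhibitor, had 8.68, 14.3 and 5.55 TPM with IL-21 added, against 27.2, 24.4 and 33.7 TPM with anti-CD40 alone (log2 difference -1.56 ± 0.28). Outside that list Sesn1, a p53 target that restrains growth signalling, had 7.82, 7.19 and 7.39 TPM with IL-21 added, against 54.1, 45.0 and 55.3 TPM with anti-CD40 alone (log2 difference -2.63 ± 0.15, adjusted p = 1.87e-11). Every IL-21 library lay below every library without it for all 3. Of 20 tested p53 target genes 5 rose and 2 fell, or 4 and 4 after median-of-ratios rescaling, so Sesn1 does not stand for that list. On deposited TPM these shares were not far above the 17.8% and 6.33% of all tested genes. In the quiescence list Cdkn1b (p27) fell by 0.74 ± 0.20, and Klf13 was a member that rose (log2 difference 1.46 ± 0.27).

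**Figure D3:**
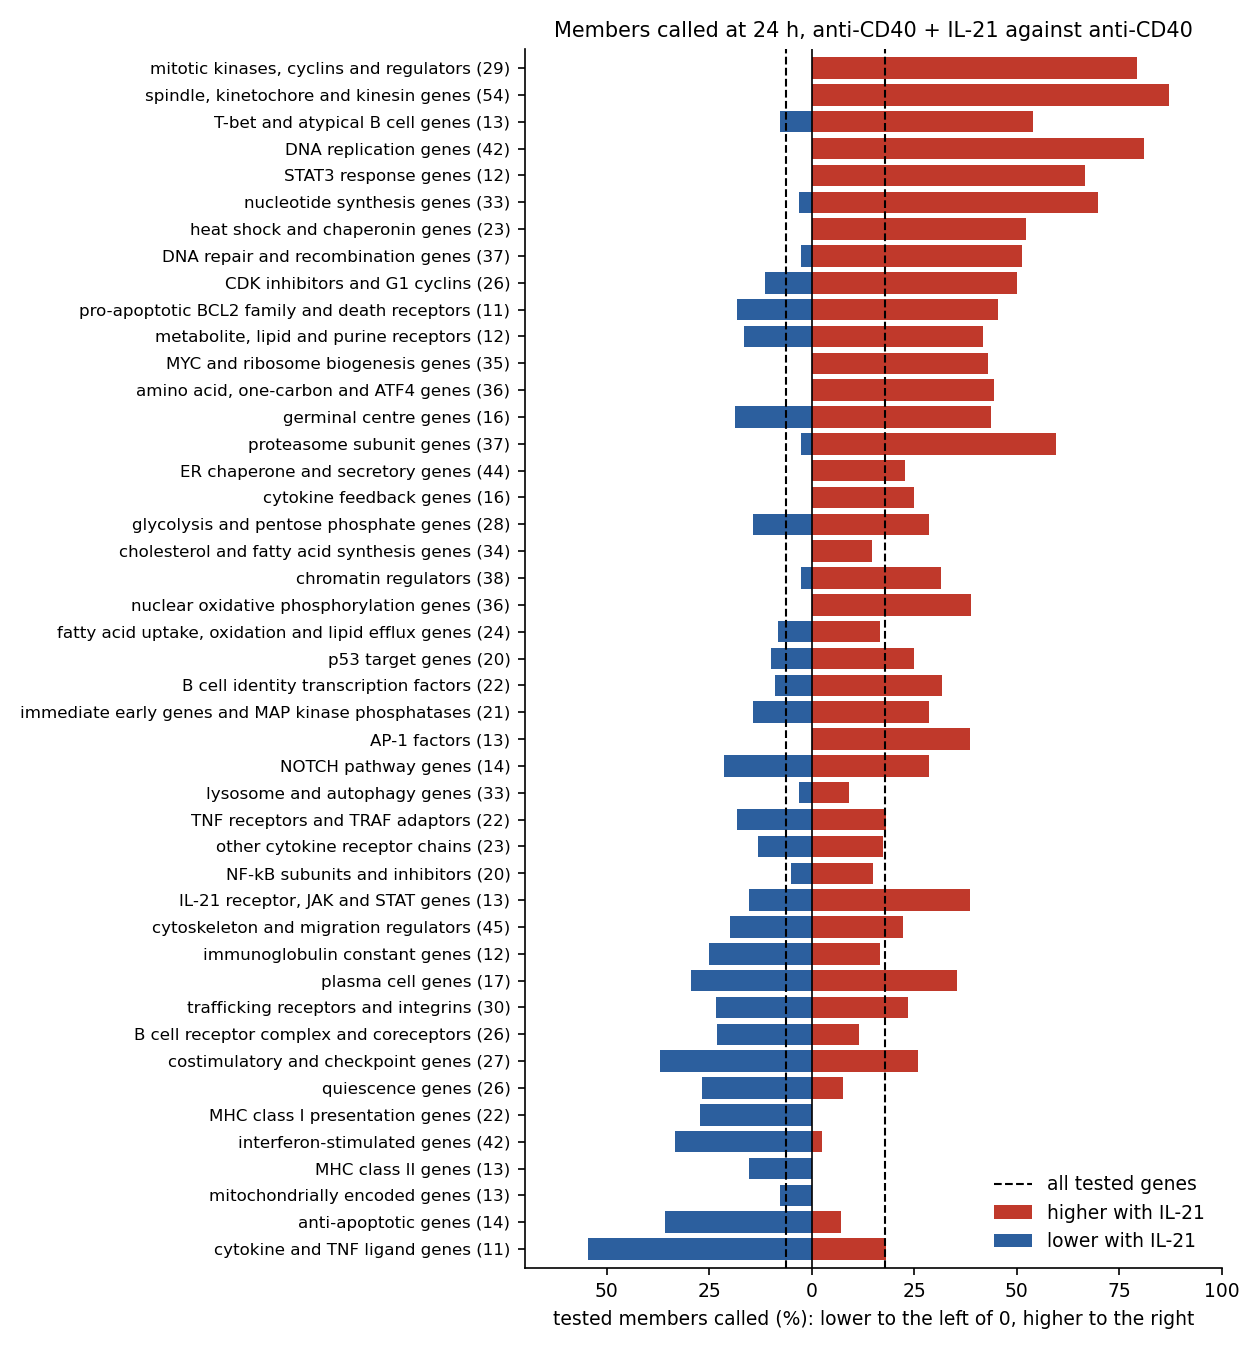
Share of tested members called higher with IL-21 (right of 0) or lower (left of 0) in each gene list with at least 10 tested members, sorted by list median; the number tested is in parentheses and dashed lines mark the shares over all tested genes, 17.8% higher and 6.33% lower. The cell cycle lists have the longest bars to the right, and the cytokine and anti-apoptotic lists lie at the bottom, with medians 1.01 and 0.76 below that of all genes.

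Among lists with at least 10 tested members, the 3 with the highest share of rises were those of the cell division machinery. DNA replication genes rose in 34 of 42 tested members with none lower, mitotic kinases, cyclins and regulators in 23 of 29 with none lower, and spindle, kinetochore and kinesin genes in 47 of 54 with none lower. Their medians lay 1.08, 1.77 and 1.53 above that of all genes. After median-of-ratios rescaling 29, 22 and 42 rose and none fell. Ribosomal protein and mitochondrially encoded transcripts took a smaller share of the same IL-21 libraries (above), and with these and pseudogenes left out 2639 genes were called in all.

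In G1 control, 13 of 26 tested CDK inhibitor, G1 cyclin and E2F genes rose and 3 fell. Ccne1, the cyclin of S phase entry, had 38.9, 50.7 and 28.2 TPM with IL-21 added, against 4.14, 2.92 and 5.28 TPM with anti-CD40 alone (log2 difference 2.97 ± 0.32). Ccnd3 had 178, 225 and 136 TPM with IL-21 added, against 57.6, 43.7 and 60.0 TPM with anti-CD40 alone (log2 difference 1.70 ± 0.31). Mybl2, an activator of late cell cycle genes, had 52.6, 63.0 and 43.7 TPM with IL-21 added, against 11.7, 7.25 and 13.2 TPM with anti-CD40 alone (log2 difference 2.23 ± 0.33). All IL-21 libraries were above all others in these 3. The related Myb, by contrast, had 2.00, 1.43 and 1.89 TPM with IL-21 added, against 13.3, 10.8 and 14.4 TPM with anti-CD40 alone (log2 difference -2.32 ± 0.23). The CDK inhibitor Cdkn2d also rose (log2 difference 3.26 ± 0.23).

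S phase genes had similar shifts. Mcm3, whose promoter window is printed above, had 10.4, 10.7 and 6.79 TPM with IL-21 added, against 0.988, 0.475 and 0.185 TPM with anti-CD40 alone (log2 difference 2.74 ± 0.60). The origin licensing factor Cdc6 had 16.9, 19.4 and 13.6 TPM with IL-21 added, against 2.61, 2.86 and 2.98 TPM with anti-CD40 alone (log2 difference 2.20 ± 0.36). The checkpoint mediator Clspn had 6.82, 11.9 and 14.03 TPM with IL-21 added, against 0.633, 0.775 and 2.82 TPM with anti-CD40 alone (log2 difference 2.37 ± 0.29). The sliding clamp Pcna, the most abundant of the list, had 519, 518 and 621 TPM with IL-21 added, against 229, 230.2 and 238 TPM with anti-CD40 alone (log2 difference 1.24 ± 0.11, adjusted p = 1.68e-08). Of these 4 genes Pcna had the smallest SE, and its groups were more than 2-fold apart. Of 33 nucleotide synthesis genes 23 rose and 1 fell (Ctps2, -0.71 ± 0.17), among them the ribonucleotide reductase chains Rrm1, with 190.4, 188 and 206 TPM with IL-21 added, against 71.4, 50.9 and 79.7 TPM with anti-CD40 alone (log2 difference 1.54 ± 0.16), and Rrm2 (log2 difference 2.35 ± 0.46). Of 37 DNA repair genes 19 rose and 1 fell.

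Mitotic genes had the highest list median. Ccnb2 (cyclin B2) had 36.3, 43.4 and 36.6 TPM with IL-21 added, against 4.98, 2.86 and 7.06 TPM with anti-CD40 alone (log2 difference 2.80 ± 0.30, adjusted p = 4.45e-07). Ccna2 (cyclin A2) had 98.9, 98.2 and 106 TPM with IL-21 added, against 18.8, 16.4 and 20.7 TPM with anti-CD40 alone (log2 difference 2.38 ± 0.19). Plk1 (polo-like kinase) had 39.3, 50.3 and 34.8 TPM with IL-21 added, against 4.12, 2.65 and 5.68 TPM with anti-CD40 alone (log2 difference 3.07 ± 0.41). The lowest IL-21 library was at least 4 times the highest library without for these 3. Cdca8 (borealin) had 46.7, 56.3 and 43.7 TPM with IL-21 added, against 8.56, 5.43 and 12.02 TPM with anti-CD40 alone (log2 difference 2.42 ± 0.27), Kif23, a kinesin of cytokinesis, had 47.0, 60.1 and 34.8 TPM with IL-21 added, against 9.05, 4.45 and 8.31 TPM with anti-CD40 alone (log2 difference 2.56 ± 0.39). Spc24, of the outer kinetochore, had 85.6, 102 and 66.5 TPM with IL-21 added, against 19.0, 6.67 and 16.1 TPM with anti-CD40 alone (log2 difference 2.61 ± 0.41). In naive cells Ccnb2, Cdca8 and Kif23 averaged 6.54 ± 1.45, 8.26 ± 0.582 and 9.32 ± 2.72 TPM (SD, n = 3 each), close in size to the anti-CD40 level. Chromatin genes tied to division were among 12 of 38 that rose, such as Uhrf1 (log2 difference 2.05 ± 0.40) and Ezh2 (log2 difference 2.14 ± 0.41).

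Growth genes rose in smaller numbers, and their counts depended on single libraries. MYC and ribosome biogenesis genes rose in 15 of 35 with none lower (7 without replicate 2 of the anti-CD40 group, 8 without replicate 2 of the IL-21 group, and 23 without replicate 1 of the naive and anti-CD40 plus IL-4 24 h groups), amino acid and ATF4 genes in 16 of 36 with none lower (5 and 7 without those replicates 2), and nuclear oxidative phosphorylation genes in 14 of 36 with none lower (7 without replicate 2 of the anti-CD40 group, 9 without replicate 1 of the IL-21 group and 9 after median-of-ratios rescaling). Proteasome subunits rose in 22 of 37 with 1 lower, 13 after median-of-ratios rescaling, and heat shock and chaperonin genes in 12 of 23 with none lower (7 with mitochondrially encoded, ribosomal protein and pseudogene transcripts left out). Ldha, lactate dehydrogenase, had 99.2, 103 and 106 TPM with IL-21 added, against 30.4, 18.4 and 29.9 TPM with anti-CD40 alone (log2 difference 1.96 ± 0.27), the polyamine enzyme Srm differed by 1.39 ± 0.31, and the cochaperone Stip1 by 1.40 ± 0.27. Myc itself did not pass (log2 difference -0.14 ± 0.34).

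The same addition of IL-21 was measured at 6 h in other libraries, so the difference at 24 h could be set against it. At 6 h 1471 genes were called (12.1%), 903 higher (7.43%) and 568 lower (4.68%); without replicate 1 of the anti-CD40 6 h group 939 were called, and without replicate 2 of the anti-CD40 plus IL-21 6 h group 974. Of the 2167 genes higher at 24 h, 598 were also higher at 6 h, which is 27.6% of the later and 66.2% of the earlier list. Of the 769 lower, 269 were also lower at 6 h, 35.0% and 47.4%. Only 21 genes higher at 24 h were called lower at 6 h, and 5 the reverse. The change in the difference between times was called for 539 genes (4.44%), 376 with a larger value at 24 h (3.1%) and 163 with a smaller one (1.34%). It was called for 1040 without replicate 1 of the naive and anti-CD40 plus IL-4 24 h groups.

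**Figure D4:**
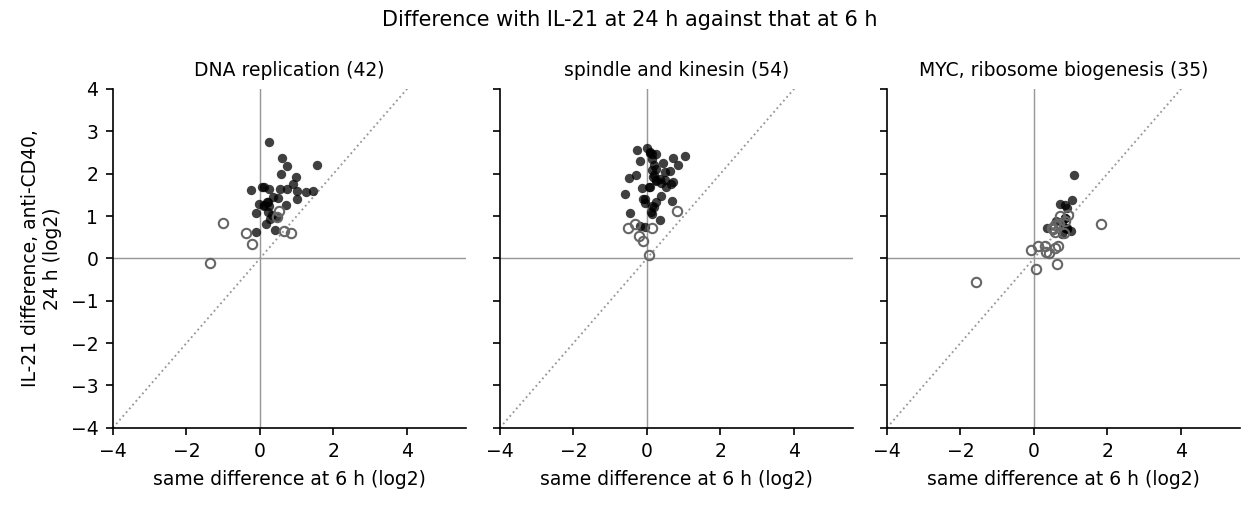
Log2 difference with IL-21 at 24 h (vertical) against that at 6 h (horizontal) for the tested members of 3 gene lists; each point is a gene, filled where called at 24 h, and the dotted line marks equal differences. Nearly all replication and spindle genes lie above the line, most within 1 of 0 at 6 h, whereas ribosome biogenesis genes lie around the line.

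Fewer division genes were called at 6 h than at 24 h. At 6 h none of the 54 spindle genes was called higher and 1 lower, 1 of 29 mitotic genes and 6 of 42 replication genes were higher, and the change between times was called for 27, 18 and 7 of them, larger at 24 h in each of these. Ccnb2 at 6 h averaged 3.48 ± 1.41 TPM with IL-21 added and 3.86 ± 1.76 TPM with anti-CD40 alone (SD, n = 3 each), a difference of -0.10 ± 0.30, and the change to 24 h was 2.90 ± 0.43 (adjusted p = 0.000168). Kif23 changed by 2.85 ± 0.55 between the times. By contrast 12 of the 35 MYC and ribosome biogenesis genes were already higher at 6 h, and the change between times was called for none of the 35.

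Other genes with a later difference had other roles. Pltp at 6 h averaged 0.143 ± 0.173 TPM with IL-21 added and 0.0621 ± 0.0770 TPM with anti-CD40 alone (SD, n = 3 each), and its change between times was 3.89 ± 0.43 (adjusted p = 4.97e-06). Rflnb, a regulator of filamin, changed by 3.67 ± 0.40, Tox by 3.12 ± 0.25, and Ighg2b by 2.27 ± 0.44, with 6 h differences of 0.67 ± 0.28, 0.73 ± 0.17 and -0.07 ± 0.31. Late falls included Marcks (change -3.65 ± 0.32), Gbp5 (change -2.36 ± 0.38), Ccl5 (change -2.58 ± 0.56) and Btg1 (change -1.97 ± 0.39). Each of these changes between times was called.

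Other genes had their larger difference at 6 h. Batf, a partner of IRF4 and JUN, differed by 3.29 ± 0.12 at 6 h and 1.61 ± 0.12 at 24 h, a change of -1.69 ± 0.16 (adjusted p = 1.21e-06). Nfil3 differed by 3.93 ± 0.28 and 2.29 ± 0.28 (change -1.64 ± 0.39), and Il10 by 2.41 ± 0.20 and 0.76 ± 0.20 (change -1.66 ± 0.28). All 3 remained higher with IL-21 at 24 h. Ahr, the aryl hydrocarbon receptor, differed by 3.04 ± 0.26 at 6 h, changed by -2.27 ± 0.37, and at 24 h had 4.88, 5.42 and 2.26 TPM with IL-21 added, against 1.98, 1.51 and 2.33 TPM with anti-CD40 alone. Its groups overlapped at 24 h, and its call there (log2 difference 0.77 ± 0.26) was lost without replicate 1 or 2 of either group (highest adjusted p = 0.176). A pair of surface ligands were higher with IL-21 at 6 h and lower at 24 h: Cd200 differed by 1.75 ± 0.18 at 6 h and -0.65 ± 0.18 at 24 h, and Cd274 by 0.73 ± 0.22 and -1.13 ± 0.22, each called at both times.

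IL-21 was also added in the presence of IL-4 at 24 h, and the 2 differences share no library. The change of the IL-21 difference with IL-4 was called for 705 genes (5.8%), 404 higher (3.33%) and 301 lower (2.48%). That count was 2460 without replicate 1 of the anti-CD40 plus IL-4 group, 3015 without that library and replicate 1 of the naive group, 1346 after median-of-ratios rescaling and 289 with the 12 compared libraries fitted alone, so it is given with that range. Of the genes called at 24 h without IL-4, the change was called for 305 of those higher and 218 of those lower. The IL-21 difference with IL-4 present was itself called for 2941 genes (24.2%), 2651 higher (21.8%) and 290 lower (2.39%). After median-of-ratios rescaling 1215 of 2608 called genes were higher, and with only the 2 groups of this difference fitted 342 genes were called, 285 of them higher. The median of this difference over all tested genes was 0.38 on TPM and -0.01 after that rescaling, and the median of the change was 0.19 and -0.03.

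**Figure D5:**
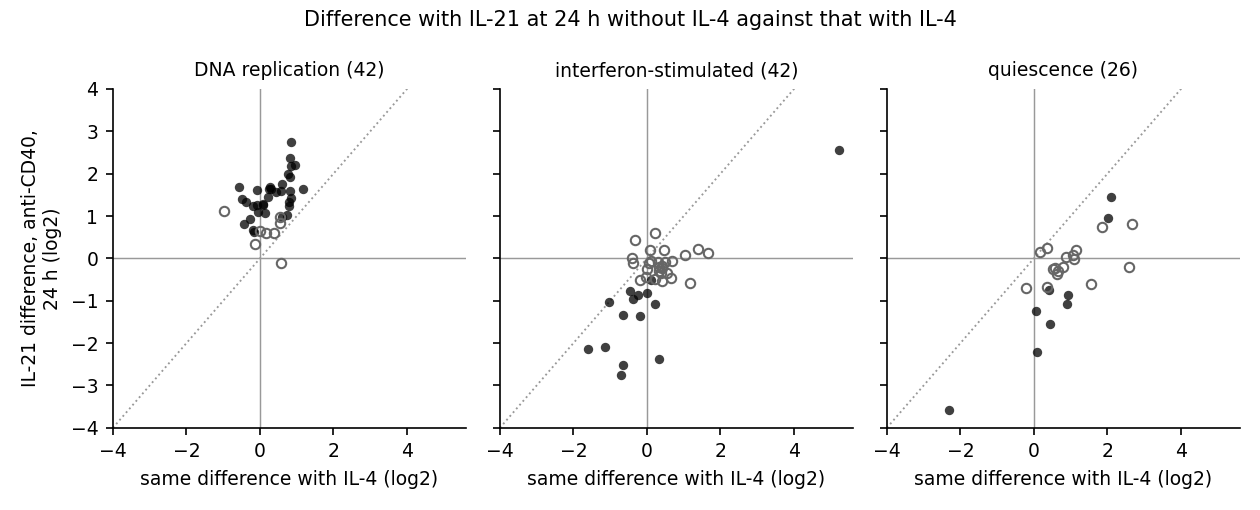
Log2 difference with IL-21 at 24 h without IL-4 (vertical) against that with IL-4 (horizontal) for the tested members of 3 gene lists; each point is a gene, filled where called without IL-4, and the dotted line marks equal differences. All but 1 of the 42 replication genes lie above the line, and nearly all called interferon-stimulated and quiescence genes lie below it.

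The change with IL-4 was called for 13 of 42 DNA replication genes, lower in all 13, and for 9 of 29 mitotic and 15 of 54 spindle genes, lower in all. After median-of-ratios rescaling the counts were 25, 14 and 32, and with the compared groups fitted alone 6, 4 and 5, again all lower. Pcna averaged 492 ± 5.93 TPM with anti-CD40, IL-4 and IL-21 and 565 ± 51.8 TPM with anti-CD40 and IL-4 (SD, n = 3 each), a difference of -0.20 ± 0.11, and the change was -1.44 ± 0.15 (adjusted p = 3.80e-06). Ccna2 averaged 73.5 ± 4.20 and 52.2 ± 5.35 TPM in the same groups (log2 difference 0.49 ± 0.19), and the change was -1.89 ± 0.26. The Pcna mean with anti-CD40 and IL-4 lay between the lowest and highest of the 3 libraries with anti-CD40 and IL-21, though those groups were not compared by a test.

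Of the interferon-stimulated genes the change was called for 8 of 42, higher in all 8, and of the quiescence genes for 8 of 26, higher in all 8. After median-of-ratios rescaling these counts were 9 and 13, and without replicate 1 of the anti-CD40 plus IL-4 group 17 and 20, all higher. With the compared groups fitted alone they were 7 and 4. Gbp2 averaged 4.01 ± 0.683 TPM with anti-CD40, IL-4 and IL-21 and 3.12 ± 1.13 TPM with anti-CD40 and IL-4 (log2 difference 0.32 ± 0.20), a change of 2.69 ± 0.28 (adjusted p = 3.11e-06). The Gbp2 mean with anti-CD40 and IL-4 lay far below every library with anti-CD40 alone and near those with anti-CD40 and IL-21. Gbp2 was thus low with IL-4 whether or not IL-21 was added, though those groups were not compared by a test. Btg1 changed by 2.28 ± 0.39 and Cnr2 by 2.49 ± 0.51. The NF-kB inhibitor Tnfaip3 (A20) fell without IL-4, with 5.71, 8.57 and 1.37 TPM with IL-21 added, against 19.5, 16.9 and 22.03 TPM with anti-CD40 alone (log2 difference -1.93 ± 0.41). With IL-4 its difference was 1.60 ± 0.41, a change of 3.53 ± 0.58. Among the largest rises, Socs3 changed by -2.81 ± 0.39 and Rflnb by -3.78 ± 0.40, both smaller with IL-4, whereas Slpi changed by 2.59 ± 0.45, larger with IL-4. Ido1 also had a larger difference with IL-4, by 2.68 ± 0.24.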

How the data were processed

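PolyA RNA of 27 libraries was sequenced, 3 in each of 9 groups, and groups and replicate numbers were taken from the labels. The authors deposited 1 table of TPM per gene, made with Salmon 1.9.0 against GRCm38 (mm10) per the submitters' processing notes; the annotation and the summary to genes are not given in the sources used here. The listed TPM sum to 766384 to 825365 per library, and TPM keeps no read counts, so depth is unknown and intervals for counting error cannot be given. Of 35604 gene identifiers 35301 were named by GENCODE M21, and 10174 genes were at 0 in all libraries.

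Genes that reached 1 TPM in 3 or more of the libraries were tested in limma 3.58.1 (R 4.3.3) on log2(TPM + 1), with 1 mean per group, a moderated variance with a trend and Benjamini-Hochberg adjustment over 12147 genes. The 6 h and 24 h differences share no library, nor do those with and without IL-4. Fits with other samples, filters, scalings and pseudocounts, with a replicate block and with each library left out were compared. The pipeline was tested on simulated data. Tables and figures used Python 3.11.15, pandas 2.3.3 and matplotlib 3.10.9. Promoter sequences and gene positions came from RefSeq (GRCm38.p6) and GENCODE M21. A few genes are not reported here. No pair of libraries held identical values.

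The gene lists, the rule for named genes and the alternatives were chosen with earlier results of these data known. The rule took the 15 largest rises and falls called with no overlap and averaging 5 TPM or more in whichever group was higher, up to 5 called members of each list by size and up to 3 of the opposite direction, the 5 largest changes either way with time and with IL-4, and a fixed panel. Ahr, Btla, Ccna2, Ccnd3, Cd200, Cd244a, Cd274, Cd48, Cd84, Cd9, Ciita, Cish, Cnr2, H2-Ab1, Havcr2, Ifi27l2a, Irf1, Isg15, Pcna, Pdcd1, Slamf6, Slamf9, Tigit, Tnfsf4 and Vsir were added after their values were seen. Deviations of same-numbered libraries from their group means correlated at 0.0945, -0.246 and -0.214 for the 24 h comparison, so those numbers were not taken as pairs, and at 0.335, 0.186 and 0.206 at 6 h, where all exceed 0.1.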

Additional observations from a re-analysis of the deposited data

Results flagged for a closer look

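The genes given here had a log2 difference with IL-21 that itself differed between 2 settings, by the limma test of the change between them with Benjamini-Hochberg adjustment. Between 6 h and 24 h the change was called for 539 genes. The difference was larger at 24 h for Pltp (3.89, adjusted p = 4.97e-06), Rflnb (3.67), Serpinb7 (3.47), Scimp (3.33) and Cited2 (3.29). It was lower at 24 h for Marcks (-3.65, adjusted p = 2.29e-07), Cd36 (-2.99), Gem (-2.94), Pdcd4 (-2.93) and Satb1 (-2.81). Pdcd4, an inhibitor of translation, lost this call without replicate 1 or 3 of the anti-CD40 24 h group, replicate 1 or 2 of the anti-CD40 plus IL-21 24 h group, replicate 2 of the anti-CD40 6 h group or replicate 3 of the anti-CD40 plus IL-21 6 h group (change -2.35 to -2.86). Serpinb7, a serine protease inhibitor, had 6.79, 6.80 and 10.6 TPM with IL-21 added, against 0.252, 0.404 and 0.348 TPM with anti-CD40 alone.

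Between 24 h with and without IL-4 the change was called for 705 genes. The difference was higher with IL-4 for Cd36 (3.63, adjusted p = 0.000343), Tnfaip3 (3.53), Plxnd1 (3.29), Marcks (3.1) and Hes1 (2.98). It was lower with IL-4 for Rflnb (-3.78, adjusted p = 3.11e-06), Tmem176b (-3.1), Socs3 (-2.81), Serpinb7 (-2.71) and Cenpi (-2.61). Socs3 averaged 435 ± 20.9 TPM with anti-CD40, IL-4 and IL-21 and 9.44 ± 4.33 TPM with anti-CD40 and IL-4 (SD, n = 3 each), so its difference there was smaller but of the same sign, at 5.46 ± 0.27. Cd36 averaged 2.33 ± 0.990 TPM and 18.8 ± 4.13 TPM in those groups, so it was low with IL-4 and IL-21 and intermediate with IL-4. Plxnd1 lost the call without replicate 3 of the anti-CD40, IL-4 and IL-21 group (2.70, adjusted p = 0.0525). Cenpi lost it without replicate 1 or 3 of the anti-CD40 group, replicate 3 of the IL-21 group, replicate 3 of the anti-CD40 plus IL-4 group or replicate 2 of the group with all 3 agents (-1.89 to -2.46).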

How the results depend on the processing

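The count of genes called at 24 h (2936) kept within 1.5 times under every alternative: 2035 with the compared libraries fitted alone, 4133 without a filter and 4139 without replicate 1 of the naive and anti-CD40 plus IL-4 24 h groups, and 2057 to 2827 leaving out 1 library. The share of calls that were higher (73.8%) became 55.5% under median-of-ratios rescaling, 55.9% without mitochondrially encoded, ribosomal protein and pseudogene transcripts and 79.7% without a filter, and 67.1% to 78.4% leaving out 1 library, 67.1% without replicate 2 and 78.4% without replicate 3 of the anti-CD40 group. The count for the change between 6 h and 24 h (539) was 377 to 537 leaving out 1 library and 1040 without the 2 replicate 1 libraries. The count for the change with IL-4 (705) was 289 with the compared libraries alone, 1346 under median-of-ratios rescaling, 1167 without mitochondrially encoded, ribosomal protein and pseudogene transcripts, 3015 without the 2 replicate 1 libraries and 501 to 2460 leaving out 1 library, 2460 being without replicate 1 of the anti-CD40 plus IL-4 24 h group; the cause was not tested.

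With the replicate number as a block, 3305 genes were called at 24 h (72.9% higher), 1656 at 6 h against 1471 without it, 692 for the change with time and 892 for the change with IL-4. Same-numbered libraries did not deviate together in the 24 h comparison, so the numbers were not taken as pairs there. In the 6 h comparison all 3 pairs correlated over 0.1. By deviations from group means, 20 of 27 libraries correlated best with a library of their own number among the other groups. What the numbers stand for is not given by the labels. Over 296 single-gene results and the alternatives, 4232 of 4536 values kept their status as called or not called, 300 lost the call and 4 gained it. The losses fell in 69 results. Where the main fit or the alternative called the gene, 0 values changed sign. A change of sign in a gene called in neither fit was counted as kept. Depth is unknown, 3 libraries a group limit the precision, and TPM is a share of a library, so the sign of small differences depends on scaling.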

Other observations

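Some shifts fell outside the roles above. The lysosomal protease Ctsa had 207, 251 and 144 TPM with IL-21 added, against 40.3, 33.2 and 49.8 TPM with anti-CD40 alone (log2 difference 2.24 ± 0.49, limma, adjusted p = 0.00188). Of 33 lysosome and autophagy genes 3 rose and 1 fell, shares below the 17.8% and 6.33% of all tested genes. Abca1, which exports cholesterol, had 0.466, 0.197 and 0.0653 TPM with IL-21 added, against 2.80, 2.82 and 3.98 TPM with anti-CD40 alone (log2 difference -1.76 ± 0.16). Tubb6, a beta-tubulin, rose by 1.88 ± 0.24 and Myl4, a myosin light chain, fell by 1.61 ± 0.23, both without overlap between the groups.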
